A study of Homo sapiens with 6 samples.

Results

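The C/D box small nucleolar RNAs (snoRNAs) described here are the entries whose name starts with SNORD, without the members of the GAS5, SNHG1 and imprinted clusters and some other numbered families. The rule used the name only and no measured value. It gave 129 entries of the 271 with a SNORD name, the 428 with a snoRNA or scaRNA name and the 28846 in each file. Of the 129, 106 passed the filter on low counts and were tested. The other 23 did not pass, 11 of them with 0 counts in every library, and the highest sum over all 6 libraries among them was 42. A count of 0 allows a share of up to 0.000185% in the smallest library and 1.97e-05% in the largest, for counting error only. For 16 of these 23 entries the annotation used here has no gene of that name.

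C/D box snoRNAs are short RNAs of the nucleolus that guide 2′-O-methylation, the addition of a methyl group to the ribose of a target nucleotide. Each carries a C box near its 5′ end and a D box near its 3′ end, which bring together the core proteins of the particle, among them the methyltransferase fibrillarin. The stretch just upstream of a D box pairs with ribosomal RNA or U6 small nuclear RNA and places the methyl group. In human cells most of them lie in introns of host genes, many of which code for ribosomal proteins or other parts of the translation machinery. They are cut out of the spliced intron, so that the mature snoRNA and the host mRNA can differ in stability.

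Small RNA was sequenced from K562, an established erythroleukemia cell line, which can be driven towards the erythroid or the megakaryocytic lineage. RUNX1 is a transcription factor of blood cell development. The control group was transduced with SIEW, a lentiviral vector expressing GFP only. The RUNX1 group received SIEW RUNX1, which expresses human RUNX1 and GFP, so that all cells carried a vector and GFP. Each group had 3 samples from independent transductions of the 1 cell line, harvested after 10 days. Total counts ranged from 1618248 to 15245007 per library, with the smallest in control replicate 1 and the largest in RUNX1 replicate 1. The entries are small RNAs, so the level of RUNX1 and the mRNA markers of the cell line could not be checked. The library names of the groups carry different letters, and where these stand for separate preparations, preparation and group cannot be told apart. In whole-cell RNA, fewer snoRNA molecules and a larger amount of other small RNA cannot be told apart either, since a library gives shares of its counts.

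The following sequences carry the results below. They are the largest rise (SNORD58B) with the other copies of its name, the copies of 1 name in 1 host gene that differed most (SNORD14A and SNORD14B), and the largest fall (SNORD53) with its host gene neighbour SNORD92. SNORD100, SNORD101, SNORD33 and the SNORD83 pair were added after their values were seen. The sequences and positions are those of GENCODE 29 on GRCh38, matched by symbol, since the files give names and counts but no coordinates. They are written as DNA letters. Capitals mark the letters TGATG in the first 20 bases, the core of the C box, and the last CTGA within the final 15 bases, the D box. All 12 lie within a host gene on its strand.
SNORD58A: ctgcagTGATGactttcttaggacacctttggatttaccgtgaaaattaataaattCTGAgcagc
SNORD58B: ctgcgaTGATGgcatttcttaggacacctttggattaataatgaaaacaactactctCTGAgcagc
SNORD58C: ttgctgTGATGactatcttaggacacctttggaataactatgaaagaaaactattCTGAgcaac
SNORD14A: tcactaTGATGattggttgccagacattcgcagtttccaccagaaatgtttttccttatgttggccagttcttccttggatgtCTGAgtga
SNORD14B: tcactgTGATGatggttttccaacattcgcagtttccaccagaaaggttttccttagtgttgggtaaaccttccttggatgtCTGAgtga
SNORD53: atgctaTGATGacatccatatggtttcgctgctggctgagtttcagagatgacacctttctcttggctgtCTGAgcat
SNORD92: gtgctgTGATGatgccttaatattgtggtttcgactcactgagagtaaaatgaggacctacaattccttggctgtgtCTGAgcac
SNORD100: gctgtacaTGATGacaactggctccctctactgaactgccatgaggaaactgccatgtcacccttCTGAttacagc
SNORD101: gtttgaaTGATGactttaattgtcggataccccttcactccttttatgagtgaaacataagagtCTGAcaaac
SNORD33: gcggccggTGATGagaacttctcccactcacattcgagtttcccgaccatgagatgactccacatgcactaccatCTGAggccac
SNORD83A: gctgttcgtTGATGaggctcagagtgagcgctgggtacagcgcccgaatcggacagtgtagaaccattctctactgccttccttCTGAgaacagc
SNORD83B: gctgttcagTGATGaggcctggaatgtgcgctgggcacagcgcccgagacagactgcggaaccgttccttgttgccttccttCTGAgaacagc

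The SNORD58 copies lie on the minus strand in RPL17, which codes for a large subunit protein, with SNORD58A at chr18:49491283-49491347, SNORD58B at chr18:49491664-49491729 and SNORD58C at chr18:49489245-49489308. SNORD58A and SNORD58C are intronic, and SNORD58B overlaps an exon of a coding RPL17 transcript. SNORD14A (chr11:17074654-17074744) and SNORD14B (chr11:17075779-17075868) lie on the minus strand in introns of RPS13. SNORD53 (chr2:28927067-28927144) and SNORD92 (chr2:28913664-28913748) lie on the plus strand in introns of WDR43, which codes for a protein of early ribosome assembly. SNORD100 (chr6:132816802-132816877) and SNORD101 (chr6:132815307-132815379) lie on the plus strand in introns of RPS12. SNORD33 (chr19:49490615-49490699, plus strand) is intronic in RPL13A, and SNORD83A (chr22:39315213-39315307) and SNORD83B (chr22:39313819-39313911) are intronic in RPL3 on the minus strand.

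The SNORD58 copies share the 18 bases tcttaggacacctttgga, which start at base 16 of SNORD58A and SNORD58C and at base 17 of SNORD58B. SNORD58A and SNORD58B share a longer run of 22 bases, and any 2 of the 3 copies differ by 14 single-base edits. SNORD14A and SNORD14B share the 23 bases acattcgcagtttccaccagaaa and differ by 13 edits over 91 and 90 bases. How reads that match several loci were counted is not given in the sources used here, so a read lying wholly within such a shared stretch could have been assigned to either copy. The values of the copies are uncertain to that extent.

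By symbol, 109 of the 129 entries matched a single GENCODE locus, of which 103 were intronic in a gene on the same strand and 5 overlapped an exon (SNORD7, SNORD12, SNORD42B, SNORD58B and SNORD121B). The host was protein-coding for 96. The 102 tested entries with a sequence were 64 to 237 nt long, with a median of 81.5 nt. TGATG stood in the first 20 bases of 91.2% and CTGA in the last 15 of 89.2%, searched on the RNA strand only, and 85.3% held both. Over all 278 SNORD transcripts of the annotation 79.1% held both, and none of the 147 SNORA transcripts, the H/ACA box class, did.

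In control samples these 129 entries took 5.73% ± 0.18 of all counts (SD, n = 3), and in the RUNX1 group 3.20% ± 0.159 (SD, n = 3). The 3 control samples were at 5.798%, 5.86% and 5.52% and the 3 RUNX1 samples at 3.09%, 3.12% and 3.38%, without overlap. Their share of all snoRNA counts was 69.5% ± 0.782 in the control group and 67.2% ± 3.33 in the RUNX1 group (SD, n = 3 each), and here the groups overlapped. All snoRNA entries together fell from 8.24% ± 0.168 to 4.78% ± 0.481 of all counts. No test was run on these sums.

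A few snoRNAs held much of this total. SNORD93, SNORD33, SNORD119, SNORD52 and SNORD104, the 5 with the highest share in control, made up 49.0% ± 0.908 of the counts of the 129 entries in control and 38.2% ± 1.83 in RUNX1 samples. SNORD93 guides 18S rRNA methylation and was the most abundant, with 21.4% ± 1.33 of these counts in control and 14.1% ± 3.41 in RUNX1 samples. SNORD33, which guides methylation of 18S rRNA, held 12.7% ± 0.297 in control and 1.799% ± 0.953 in RUNX1 samples. SNORD52, a 28S rRNA guide, went the other way, from 4.97% ± 0.344 to 14.4% ± 3.02. SNORD58B went from 0.266% ± 0.0101 to 3.75% ± 1.35.

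As a level per length, in CPM (counts over the TMM-scaled library size) divided by the length in nt, SNORD93 stood first in control with 130 ± 8.48, ahead of SNORD33 with 67.1 ± 1.35 and SNORD52 with 33.3 ± 2.31. In RUNX1 samples SNORD52 stood first with 88.2 ± 21.7 and SNORD93 next with 77.6 ± 15.8, a gap within the spread of the replicates. SNORD33 was at rank 10 of the tested snoRNAs with a known length in RUNX1 samples, with 8.53 ± 4.16 CPM per nt. Whether counts grow with the length of a snoRNA was not tested, so these ranks need not be ranks of molecules.

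RUNX1 samples were compared with control samples by edgeR's quasi-likelihood test across all 947 small RNAs that passed the filter. Altered means that the P-value was under 0.05 and that the log2 fold change was 0.5 or more in either direction. Of the 106 tested C/D box snoRNAs, 30 were up-regulated and 30 down-regulated, and 46 were not called. The 60 altered ones are 56.6% of those tested, against 57.6% of all small RNAs tested, so C/D box snoRNAs were called altered about as often as small RNAs in general. The shares by direction were 28.3% up and 28.3% down, against 28.0% up and 29.6% down over all small RNAs. The median log2 fold change was -0.12 for these snoRNAs and -0.06 for all tested. In 77 of the 106 (72.6%) the samples of the groups did not overlap, against 64.8% of all tested. The changes ran from -3.04 to 3.70 on the log2 scale.

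The split into up and down depends on the scaling. With the library size alone, which moves the median of all tested small RNAs by -0.70 on the log2 scale, 16 were up and 64 down, and 13 snoRNAs, each called with at least 1 of the library size and TMM, changed sign. With factors from microRNAs only (median moved by -0.19) 25 were up and 38 down. All fold changes below are relative to the TMM scaling of edgeR, and differences between snoRNAs of the same library do not depend on it. They are changes in reads from parts of the snoRNAs, since the reads are shorter than every tested snoRNA with a sequence. The counts do not measure intact snoRNAs, and whether the intact molecules changed was not tested.

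**Figure D1:**
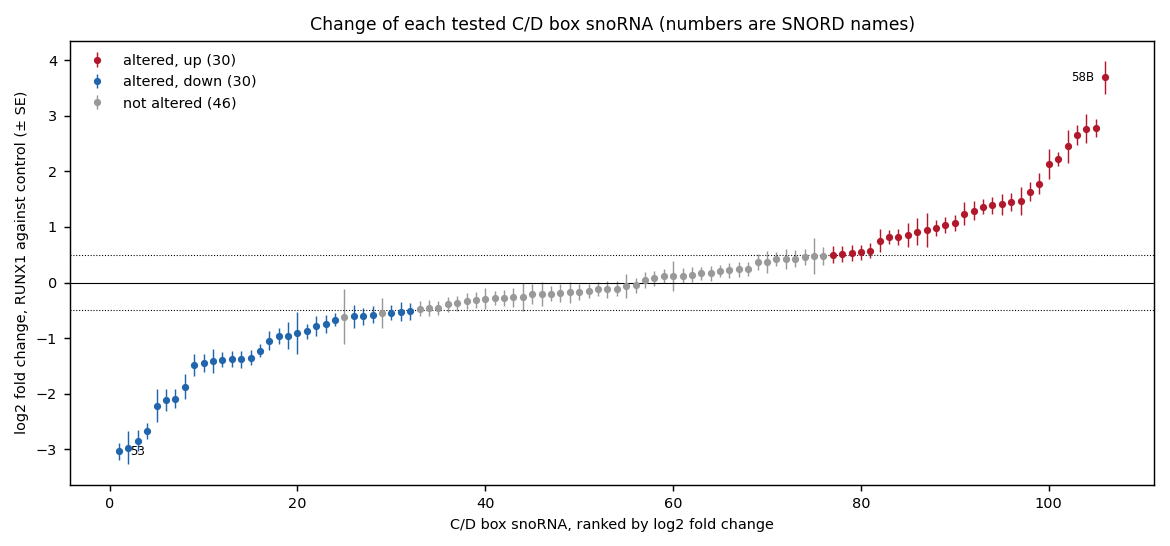
Log2 fold change (RUNX1 against control, ± SE) of the 106 tested C/D box snoRNAs, ranked on the x axis from the largest fall (SNORD53, -3.04) to the largest rise (SNORD58B, 3.70). Dotted lines mark 0.5 in each direction. Up-regulated snoRNAs (30) stand at the upper end of the ranking and down-regulated snoRNAs (30) towards the lower end. The 46 grey points were not called, and SNORD86 (-0.61) and SNORD9 (-0.54) among them lie between down-regulated ones.

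Of the 60 altered snoRNAs, 59 also had an adjusted P-value under 0.05 (Benjamini-Hochberg over the 947). The exception, named after its values were seen, was SNORD88B with -0.91 ± 0.38 (edgeR adjusted p = 0.0669). It measured 7.89, 9.44 and 23.9 CPM in RUNX1 replicates 1, 2 and 3 against 21.0, 24.8 and 29.8 CPM in control. Without RUNX1 replicate 3 its log2 fold change was -1.51. The call of SNORD88B was lost when any other of the 6 samples was left out, with -0.60 without RUNX1 replicate 1 and -0.68 without RUNX1 replicate 2. At a log2 fold change of 1 or more, 18 were up and 17 down.

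RUNX1 replicate 3 was often the RUNX1 sample nearest to control. Among the 30 up-regulated snoRNAs it had the lowest CPM of the RUNX1 samples in 23 (76.7%), and among the 30 down-regulated ones the highest in 24 (80.0%). Over all altered small RNAs the same held for 193 of 265 (72.8%) and 169 of 280 (60.4%). Without this sample 36 of the 106 snoRNAs were up and 28 down. The part of this sample's difference in the size of the changes was not tested. The median coefficient of variation over the tested snoRNAs was 5.67% in control and 14.6% in RUNX1 samples.

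The largest rise was in SNORD58B, a copy of a family that guides 28S rRNA methylation. It measured 119, 124 and 116 CPM in the control samples, here and below in the order of replicates 1 to 3, and 1688, 2076 and 881 CPM in the RUNX1 samples. Every RUNX1 sample lay far above every control sample, with replicate 3 the lowest of the RUNX1 group. The log2 fold change was 3.70 ± 0.29 (SE), or 12.96-fold (edgeR adjusted p = 1.01e-05).

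The other copies in RPL17 did not follow it to the same extent. SNORD58A measured 158, 175 and 169 CPM in control and 306, 328 and 256 CPM in RUNX1 samples, with a log2 fold change of 0.82 ± 0.14 (edgeR adjusted p = 0.000828). Its groups did not overlap. With the library size alone the call of SNORD58A was lost (0.11). SNORD58C, the most abundant copy in control, measured 1284, 1313 and 1331 CPM in control and 812, 1437 and 1510 CPM in RUNX1 samples. The RUNX1 samples lay on both sides of control, and the log2 fold change was -0.06 ± 0.21 (edgeR adjusted p = 0.821). In RUNX1 samples the level of SNORD58B was thus 1548 ± 609 CPM and that of SNORD58C 1253 ± 384 CPM (SD, n = 3 each), at 66 and 64 nt.

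A ratio of the counts of 2 snoRNAs within a sample needs no scaling. The log2 ratio of SNORD58B to SNORD58C was -3.44, -3.40 and -3.52 in the control samples and 1.06, 0.53 and -0.78 in the RUNX1 samples. The mean shift was 3.72 (exact two-sided permutation test, p = 0.1, the smallest that 3 against 3 samples allow; adjusted p = 0.125 over 30 pairs). SNORD58A to SNORD58B moved from 0.49 ± 0.07 to -2.30 ± 0.46 (SD, n = 3 each).

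The copies that differed most were SNORD14A and SNORD14B, a pair of 18S rRNA guides in separate introns of RPS13, a small subunit protein gene. SNORD14A measured 46.9, 49.8 and 45.7 CPM in control and 10.1, 9.76 and 13.7 CPM in RUNX1 samples. SNORD14B measured 22.0, 22.6 and 17.4 CPM in control and 153, 116 and 66.8 CPM in RUNX1 samples. The groups did not overlap for either, and the order of the copies was turned in every RUNX1 sample. SNORD14A was down-regulated by -2.09 ± 0.18 (edgeR adjusted p = 1.38e-05) and SNORD14B up-regulated by 2.45 ± 0.29 (edgeR adjusted p = 0.000109). The log2 ratio of SNORD14A to SNORD14B was 1.09, 1.14 and 1.39 in the control samples and -3.93, -3.57 and -2.28 in the RUNX1 samples, a 22.2-fold shift (exact permutation test, p = 0.1; adjusted p = 0.125).

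The copies of the same family in HSPA8, a heat shock protein gene, all had negative log2 fold changes. SNORD14E (-1.45 ± 0.16) and SNORD14D (-0.88 ± 0.13) were down-regulated, with edgeR adjusted p-values of 7.03e-05 and 0.000387. SNORD14C, with -0.45 ± 0.13, did not reach the fold change threshold. SNORD14E measured 545, 510 and 471 CPM in control and 182, 152 and 222 CPM in RUNX1 samples, without overlap.

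WDR43 held the largest fall and a rise. SNORD53 measured 142, 150 and 139 CPM in control and 18.2, 14.9 and 19.1 CPM in RUNX1 samples. The RUNX1 samples were close to each other and far below control, with a log2 fold change of -3.04 ± 0.15 (edgeR adjusted p = 9.42e-07). SNORD92 measured 250, 250 and 262 CPM in control and 978, 697 and 438 CPM in RUNX1 samples, a rise of 1.47 ± 0.25 (edgeR adjusted p = 0.000932). The log2 ratio of SNORD53 to SNORD92 went from -0.82 ± 0.09 to -5.27 ± 0.66 (SD, n = 3 each), a 21.8-fold shift. This pair and the other pairs with unlike names were chosen after their values were seen, so no adjusted p is given for them. A further entry named SNORD53_SNORD92, for which the annotation used here gives no locus, was down-regulated with -1.49 ± 0.20 (edgeR adjusted p = 0.000188). Whether this entry holds reads of SNORD53 or SNORD92 is not given in the sources used here. The values of SNORD53 and SNORD92 are uncertain to that extent.

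RPS12, a further small subunit protein gene, showed the same kind of split. SNORD100, an 18S rRNA guide, measured 1014, 1142 and 971 CPM in control and 150, 155 and 184 CPM in RUNX1 samples, with a log2 fold change of -2.68 ± 0.14 (edgeR adjusted p = 1.24e-06). SNORD101, which has no assigned target in the list used, measured 203, 193 and 206 CPM in control and 433, 482 and 350 CPM in RUNX1 samples. It was up-regulated with 1.07 ± 0.15 (edgeR adjusted p = 0.000257), a call lost with the library size alone (0.36). SNORD100 was above SNORD101 in each control sample and below it in each RUNX1 sample, with log2 ratios of 2.37 ± 0.17 and -1.37 ± 0.38 (SD, n = 3 each).

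Across the 25 host genes with at least 2 tested snoRNAs, 5 had both an up-regulated and a down-regulated one (RPS13, WDR43, RPS12, GNL3 and RPL4). GNL3 and RPL4 count here only through SNORD69 and SNORD16 (-0.52 each), whose calls were lost under DESeq2 (-0.45 each). The snoRNAs of a host differed by more than 1 on the log2 scale in 16 of the 25 and by more than 2 in 9. All tested snoRNAs were called in 1 direction in 4 hosts (DDX39B, RPS3, UBAP2 and SF3B3), and none was called in 2 (CHD8 and NOP56). The median difference between 2 snoRNAs of the same host was 0.89 over 64 pairs, and between snoRNAs of different hosts 1.10 over 4689 pairs, as a description of all pairs without a test. The host mRNAs were not measured in these libraries.

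RPL13A holds SNORD32A, SNORD33, SNORD34 and SNORD35A, all guides of rRNA. SNORD33 measured 5721, 5802 and 5575 CPM in control and 518, 523 and 1134 CPM in RUNX1 samples. Replicate 3 was the highest of the RUNX1 group and still far below control, and the log2 fold change was -2.98 ± 0.30 (edgeR adjusted p = 3.69e-05), or 7.86-fold lower. Its neighbours were not called, with -0.20 ± 0.14 for SNORD32A, 0.24 ± 0.13 for SNORD34 and -0.12 ± 0.16 for SNORD35A. SNORD32A measured 749, 766 and 745 CPM in control and 656, 556 and 754 CPM in RUNX1 samples, so that its groups overlapped.

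In RPL3, SNORD83A and SNORD83B, which have no assigned rRNA target in the list used, were both down-regulated. SNORD83A measured 776, 704 and 707 CPM in control and 139, 144 and 223 CPM in RUNX1 samples. SNORD83B measured 335, 373 and 358 CPM in control and 41.8, 43.4 and 62.9 CPM in RUNX1 samples. Neither overlapped between groups. Their log2 fold changes were -2.11 ± 0.20 and -2.85 ± 0.19 (edgeR adjusted p = 2.51e-05 and 2.98e-06). SNORD43, an 18S rRNA guide of the same gene, had -0.16 ± 0.13 and overlapping groups (edgeR adjusted p = 0.308).

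RPL4 held a family that split by copy. SNORD18B measured 434, 447 and 427 CPM in control and 1469, 1590 and 1012 CPM in RUNX1 samples, and SNORD18C 35.4, 40.6 and 40.6 CPM against 205, 211 and 100 CPM. Both 28S rRNA guides were up-regulated, by 1.64 ± 0.18 and 2.14 ± 0.27 (edgeR adjusted p = 5.38e-05 and 0.000154). SNORD18A of the same name had -0.32 ± 0.14 and was not called, and SNORD16, an 18S rRNA guide, was down-regulated with -0.52 ± 0.15. The call of SNORD16 lies at the threshold and was lost under DESeq2 (-0.45). The log2 ratio of SNORD18A to SNORD18C moved from 3.01 ± 0.07 to 0.61 ± 0.83 (SD, n = 3 each).

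Among the other ribosomal protein hosts with at least 3 tested snoRNAs, RPL23A had 1 up-regulated snoRNA, SNORD4B (0.82 ± 0.13). SNORD4A (-0.39 ± 0.13), SNORD42A (-0.17 ± 0.15) and SNORD42B (0.22 ± 0.13) were not called. RPL7A had 1 up-regulated snoRNA, SNORD36A (0.85 ± 0.21), with SNORD36B (-0.26 ± 0.25), SNORD36C (0.12 ± 0.27) and SNORD24 (-0.05 ± 0.13) not called. RPS3 has only 2 tested snoRNAs, SNORD15A (-0.67 ± 0.12) and SNORD15B (-0.61 ± 0.15), which were down-regulated side by side. Their log2 ratio was 3.28 ± 0.21 in the control group and 3.22 ± 0.20 in the RUNX1 group (exact permutation test, p = 0.7). The calls of SNORD4B and SNORD36A were lost with the library size alone.

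Of the hosts that code for nucleolar proteins, GNL3 held SNORD19B, with 104, 113 and 103 CPM in control and 539, 470 and 496 CPM in RUNX1 samples. The RUNX1 replicates of SNORD19B were close to each other, and the log2 fold change was 2.23 ± 0.13 (edgeR adjusted p = 1.76e-06). SNORD19, with 129, 152 and 127 CPM against 191, 183 and 173 CPM, had 0.42 ± 0.13 and stayed under the fold change threshold. SNORD69, a 28S rRNA guide of the same gene, was down-regulated with -0.52 ± 0.17 and lost the call under DESeq2 (-0.45). In NOP58, which codes for a core protein of the C/D box particle, SNORD70 was down-regulated (-0.96 ± 0.24). SNORD11 (-0.37 ± 0.13) and SNORD11B (0.43 ± 0.18) were not called, and the latter passed the thresholds without RUNX1 replicate 3 (0.62).

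RABGGTB, which codes for a subunit of a Rab prenyltransferase, and DDX39B, which codes for an RNA helicase, held rises only among their called snoRNAs. SNORD45A measured 108, 99.4 and 105 CPM in control and 542, 835 and 599 CPM in RUNX1 samples, a rise of 2.66 ± 0.18 (edgeR adjusted p = 4.12e-06). SNORD45C rose by 1.46 ± 0.16, while SNORD45B, with 100, 110 and 82.0 CPM against 109, 162 and 109 CPM, had 0.37 ± 0.19 and overlapping groups. The log2 ratio of SNORD45A to SNORD45B moved from 0.10 ± 0.26 to 2.38 ± 0.07 (SD, n = 3 each).

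In DDX39B, SNORD117 measured 61.7, 59.2 and 47.9 CPM in control and 474, 441 and 233 CPM in RUNX1 samples (2.77 ± 0.27; edgeR adjusted p = 3.19e-05). SNORD84 measured 109, 91.1 and 81.5 CPM against 380, 331 and 250 CPM (1.78 ± 0.19; edgeR adjusted p = 5.16e-05). Neither has an assigned rRNA target in the list used, and neither overlapped between groups.

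ZFAS1, SF3B3 and UBAP2 held smaller changes. SNORD12 (0.57 ± 0.14) and SNORD12C (0.50 ± 0.15) of the lncRNA ZFAS1 and SNORD111 (0.53 ± 0.14) and SNORD111B (0.54 ± 0.14) of SF3B3 were up-regulated, and all 4 had negative values with the library size alone. SNORD12B of ZFAS1 (0.14 ± 0.13) was not called, and the log2 ratio of SNORD12 to SNORD12B shifted by 0.43 without overlap between the groups. SNORD121A (0.94 ± 0.30) and SNORD121B (0.92 ± 0.24) of UBAP2 were up-regulated at low levels, 4.73 ± 0.884 and 11.5 ± 1.07 CPM in control (SD, n = 3 each). Both calls were lost with the library size alone (0.22 and 0.20), and that of SNORD121A also without control replicate 3 (0.79). In TSR1, SNORD91A (0.52 ± 0.14) was called up and SNORD91B (-0.29 ± 0.19) not called, and the direction of SNORD91A also turned with the library size alone. In PPAN, SNORD105B was down-regulated (-0.78 ± 0.18) and SNORD105 was not called (0.08 ± 0.13).

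The pairs of 1 name in 1 host gene numbered 30. In 24 of them the log2 ratios of the control and of the RUNX1 samples did not overlap, and in 13 the mean shifted by more than 1. In 10 it shifted by less than 0.5. The same counts were not made for pairs of different hosts, so they give no result particular to copies. For single entries the groups did not overlap in 72.6% of the tested C/D box snoRNAs and 64.8% of all small RNAs tested. The median difference in log2 fold change was 0.83 for the copies and 1.10 for snoRNAs of different hosts. With 3 samples against 3 the exact permutation test cannot go below p = 0.1, or an adjusted p of 0.125 over the 30 pairs, so none could pass a threshold of 0.05. SNORD14A and SNORD14B were the only one of these 30 pairs called in opposite directions. SNORD111 to SNORD111B kept a log2 ratio of -1.90 ± 0.07 in the control group and -1.90 ± 0.25 in the RUNX1 group, and SNORD121A to SNORD121B one of -1.29 ± 0.38 and -1.29 ± 0.06 (SD, n = 3 each). Both sequences were at hand for 29 pairs, and 15 of these shared a stretch of at least 18 bases.

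By class of the host gene, the 37 tested snoRNAs of ribosomal protein genes had 9 up- and 13 down-regulated members and a median log2 fold change of -0.20. The 34 in other protein-coding genes had 15 up and 7 down, with a median of 0.37. These splits depend on the scaling. With the library size alone the ribosomal protein genes had 5 up and 26 down, and the other protein-coding genes 8 up and 15 down. The 15 in genes of nucleolar proteins had 3 up and 5 down (median 0.08), and the 6 in genes listed as lncRNAs in the host list used 3 up and none down (median 0.32). One of these 6, SNORD52, has a host (SNHG32) that GENCODE 29 calls C6orf48 and gives as protein-coding. Of the 6 in translation factor genes, only SNORD2 of EIF4A2 was called, with -1.35 ± 0.13 (median of the 6, 0.28). The 8 tested entries without a listed host had no rise and 4 falls (median -0.51), and 4 of the 8 lie in lncRNA genes of GENCODE 29. These are SNORD60 in SNHG19 (-1.05) and SNORD93 in SNHG26 (-0.74), both down-regulated, and SNORD104 in SNHG25 and SNORD7 in LINC02001, both not called. Over all small RNAs tested 28.0% were up and 29.6% down, with a median of -0.06, and no difference between the classes was tested.

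**Figure D2:**
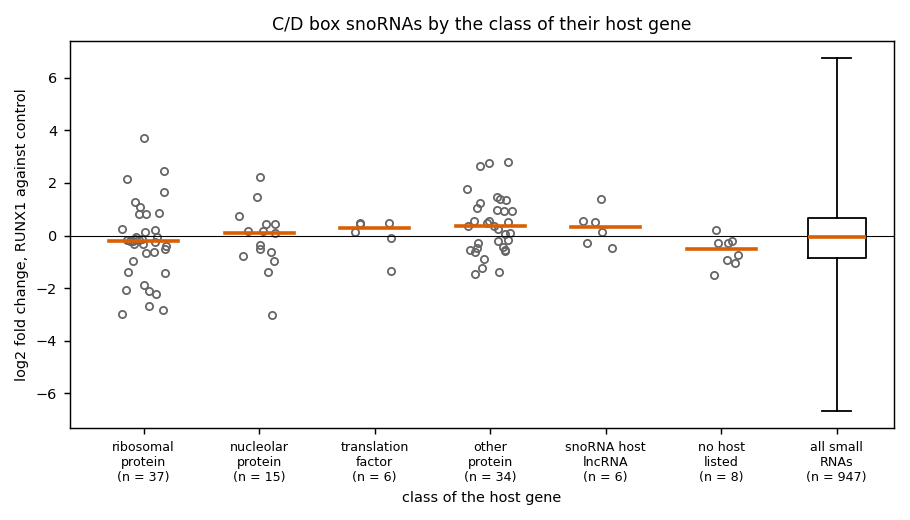
Log2 fold change (y axis) of the tested C/D box snoRNAs by class of their host gene, with each point a snoRNA and the orange line the median. The box on the right gives the quartiles and, as whiskers, the full range of all 947 tested small RNAs. Each class spans rises and falls or values on both sides of 0, and the medians range from -0.51 (no host listed) to 0.37 (other protein).

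By guide target, the 30 tested guides of 18S rRNA had 7 up and 9 down (median -0.06) and the 40 guides of 28S rRNA 10 up and 10 down (median -0.12). SNORD71, the listed guide of 5.8S rRNA, was up-regulated (0.98). Of the 5 guides of U6 small nuclear RNA (median -0.21), only SNORD94 was called (-0.54), a call lost under DESeq2 (-0.46). With the library size alone SNORD7 (-0.88), SNORD8 (-0.92), SNORD9 (-1.24) and SNORD67 (-0.89) were called down as well. The 7 snoRNAs listed without an assigned target were all called, with SNORD117, SNORD84, SNORD101 and SNORD23 up and SNORD83A, SNORD83B and SNORD89 down. Under DESeq2 SNORD89 was no longer called (-0.50), and with the library size alone neither SNORD101 nor SNORD23 was. A further 22 tested entries have no target information in the list used, with 8 up and 7 down (median 0.40). Over all small RNAs tested 57.6% were altered, 28.0% up and 29.6% down, and no difference between the targets was tested. Methylation of the targets was not measured.

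Of the abundant snoRNAs, SNORD93 measured 9465, 9074 and 10301 CPM in control and 4783, 5390 and 7047 CPM in RUNX1 samples. It was down-regulated with -0.74 ± 0.16 (edgeR adjusted p = 0.00295), without overlap. SNORD119 of SNRPB, a 28S rRNA guide, measured 2532, 2795 and 2619 CPM against 1204, 1141 and 1048 CPM (-1.23 ± 0.12; edgeR adjusted p = 3.19e-05). SNORD52 of SNHG32 measured 2406, 2119 and 2161 CPM against 6265, 7156 and 4309 CPM and rose by 1.41 ± 0.19 (edgeR adjusted p = 0.000186). SNORD104, with 1778, 1813 and 1880 CPM against 2092, 2131 and 2089 CPM, was not called (0.21 ± 0.11; edgeR adjusted p = 0.131), although its groups did not overlap.

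Base composition is given as a description only. The GC content had a median of 40.7% in the 29 up-regulated snoRNAs with a sequence, 46.6% in the 28 down-regulated and 45.2% in the 45 not called. Across the 102 tested snoRNAs with a sequence, GC content and log2 fold change had a Pearson's r of -0.33 and a Spearman's rho of -0.35. The same rho was 0.01 over 66 SNORA entries and -0.15 over 520 microRNAs. Length and log2 fold change had a rho of -0.25 over the 102. All points come from the same 6 libraries and are not independent.

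Some host lncRNAs are entries of their own in the files. SNORD65 had 10 counts over all 6 libraries and was not tested, while the entry of its host, C17orf76-AS1 (SNHG29), had 1538 to 5622 counts per library. The entry SNHG12 was down-regulated with -1.03 ± 0.12 (edgeR adjusted p = 0.000116). Its snoRNA SNORD99 also had a negative value, -0.46 ± 0.14, without overlap between groups (edgeR adjusted p = 0.0185). SNORD99 was not called only because it stayed under the fold change threshold. The entry SNHG16 had 0.11 ± 0.12 and its SNORD1B -0.28, both not called. These 3 hosts were picked after their values were seen, and whether reads of a snoRNA were counted on its host's entry is not given in the sources used here.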

How the data were processed

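Small RNA of 3 control and 3 RUNX1 samples of K562 cells was sequenced by the authors with the TruSeq Small RNA kit. The deposited values are whole-number counts per named small RNA, without normalization. The submitters' processing notes name CASAVA 1.8.2 and hg19. The authors ran their differential analysis on the OASIS platform at its standard settings, and whether the deposited counts came from it, the aligner, the counter and the treatment of reads with several matches are not given in the sources used here. The authors sequenced single reads that are shorter than every tested snoRNA with a sequence (64 to 237 nt). Each count is therefore a read of a part of a snoRNA, and intact molecules and fragments cannot be told apart.

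Counts were analysed in R 4.3.3 with edgeR 4.0.16 (filterByExpr, minimum count 10 and minimum total 15, TMM, glmQLFit and glmQLFTest on the group) over all entries. SEs were derived as the size of the log2 change over the square root of F. Replicates of a group differed by more than sampling noise (chi-square per degree of freedom 9.62 to 451), and each counted as 1 sample. TMM assumes that most small RNAs do not change, while 57.6% were called. TMM factors ranged from 0.735 to 1.31. DESeq2 1.42.0, other scalings, filters and thresholds, a replicate block, summed copies and each replicate left out were the alternatives. Both count tests were first tried on simulated data with 200 changed entries or none, fewer than were called here. That trial is therefore no check of the calls in these data. Summary rows without a gene name were at 0 and were left out. Count ratios of copies were compared by exact two-sided permutation tests.

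The members, host genes and guide targets (textbook knowledge; 97 of 97 hosts with a single locus matched GENCODE 29, with SNHG32 and SNHG29 matched there as C6orf48 and LRRC75A-AS1) were chosen with earlier results of these data known. Named are the 10 largest rises and falls with an adjusted P-value under 0.05 and no overlap between groups, the 5 most abundant in control, the snoRNAs of hosts with at least 3 tested, and the pairs of copies. Others are named as members of a small count or said to be chosen after their values were seen. The results of some host genes are not reported here.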

Additional observations from a re-analysis of the deposited data

How the results depend on the processing

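The number of altered C/D box snoRNAs was 60, and 30 were up and 30 down. It stayed within 1.5 times of 60 under every alternative but a log2 fold change of at least 1, with 35 altered, 18 up and 17 down. With the library size alone 16 were up and 64 down, and with the copies of 1 name summed 19 names were up. DESeq2 called 34 up and 25 down, and leaving out 1 replicate gave 56 to 64 altered, 29 to 36 up and 25 to 29 down. The share of all counts changed by -0.84 on the log2 scale (log2 ratio of the group means), by -0.47 with the total taken without the most abundant microRNA, hsa-miR-10a-5p, and by -0.0483 as a share of all snoRNA counts. Leaving out 1 replicate did not move it by more than the SD of the replicates. With the library size alone the direction turned for 13 of the 106, each called with at least 1 of the library size and TMM, namely SNORD82 (-0.54), SNORD59A (-0.66), SNORD37 (-0.57), SNORD110 (-0.54), SNORD17 (-0.59), SNORD36C (-0.61), SNORD111B (-0.16), SNORD111 (-0.16), SNORD91A (-0.18), SNORD12C (-0.21), SNORD12B (-0.56), SNORD12 (-0.14) and SNORD105 (-0.62). The sign also turned for some called under neither, among them SNORD19 (-0.29), SNORD11B (-0.28), SNORD45B (-0.34) and SNORD104 (-0.49). With a replicate block 59 were altered, 29 up and 30 down, and SNORD12C (0.49) lost its call. Samples with the same replicate number did not deviate together (mean correlation -0.0351), so the numbers are not taken as pairs. Deviations were taken from the mean of each group, which ties the value for other numbers (0.0164) to this one. The value for other numbers is therefore no separate check. The number of host genes whose snoRNAs differ by over 1 stayed within 1.5 times of 16 under the alternatives run. For the pairs of copies whose ratios do not overlap, the only alternatives were replicates left out, with 24 to 26 pairs. Leaving out a sample cannot make separate groups overlap, so this count could not fall and its range is no check. The cause of the shifts was not tested beyond the construction of each alternative. The 23 entries below the count filter were not tested.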
